A study of Mus musculus with 12 samples.

Results

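The lysosomal cathepsins are 10 genes here, Ctsa, Ctsb, Ctsc, Ctsd, Ctsf, Ctsh, Ctsk, Ctsl, Ctss and Ctsz, of the 54751 features counted in total RNA of mouse hearts. The genes were chosen by function around Ctsb, which was itself selected on its fold change and adjusted p between the genotypes below, so all values of that comparison are given as a description and support nothing. Each symbol had 1 row, and all 10 passed the filter on low values, a mean of at least 10 normalised counts over the 6 libraries. The hearts came from C57BL/6N mice aged 52 weeks. The 3 control libraries were from mice with both Rexo2 alleles flanked by loxP sites. The 3 libraries labelled knockout were from mice that carried those same floxed alleles and, in addition, 1 copy of an allele named Ckmm. Ckmm is a name of the gene for muscle creatine kinase. Its promoter often serves to express Cre recombinase in cardiac and skeletal muscle fibres, so other cells of the heart would keep Rexo2. The controls lack the Ckmm allele, and its effect cannot be told apart from that of losing Rexo2, an oligoribonuclease. Libraries are called by their group and the number in their column name, such as control 490. No label ties a library to its own animal, and the errors below therefore measure the spread between libraries, which may be partly technical.

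Cathepsins are the proteases of the lysosome, the acidic compartment in which cells digest proteins delivered by endocytosis and autophagy. They are made as inactive proenzymes, tagged with mannose 6-phosphate, carried to the lysosome and cleaved there into active enzymes, while cystatins inhibit those that escape. Of the 10 genes, 8 encode cysteine proteases of the papain family, 1 an aspartic protease (Ctsd) and 1 a serine carboxypeptidase (Ctsa). In the heart, cardiomyocytes use them for protein turnover by autophagy, and macrophages and fibroblasts express several of them strongly. Many lysosomal genes carry in their promoters an E-box of the type bound by TFEB, a transcription factor that promotes lysosome formation.

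Promoter windows, of 300 bases from 250 before to 50 after a RefSeq transcription start (GRCm38.p6), were at hand for 8 of the 10 genes, all but Ctsb and Ctsh, and Ctsa had 2 of them. The E-box CACGTG, which reads the same on both strands, was present in windows of 4 genes, Ctsa, Ctsd, Ctsf and Ctsl, and in 7.15% of all 32851 windows. The longer form TCACGTGA, also the same on both strands and holding CACGTG within it, was present in windows of 2 genes, Ctsa and Ctsd, and in 0.974% of all windows. The 4 windows that hold the E-box are shown. They are, on the plus strand, chr2:164833523-164833822 for the downstream start of Ctsa and chr19:4854915-4855214 for Ctsf, and, on the minus strand, chr7:142387778-142388077 for Ctsd and chr13:64370471-64370770 for Ctsl. Each is printed 5′ to 3′ on the strand of the gene, with CACGTG, or TCACGTGA where the longer form is present, in capitals.
Ctsa: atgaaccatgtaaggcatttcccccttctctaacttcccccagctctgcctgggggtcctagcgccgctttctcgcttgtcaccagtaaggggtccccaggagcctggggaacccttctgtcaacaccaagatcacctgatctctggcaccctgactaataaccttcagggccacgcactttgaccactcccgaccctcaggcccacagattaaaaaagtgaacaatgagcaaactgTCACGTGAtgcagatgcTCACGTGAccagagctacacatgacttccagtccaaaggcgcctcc
Ctsd: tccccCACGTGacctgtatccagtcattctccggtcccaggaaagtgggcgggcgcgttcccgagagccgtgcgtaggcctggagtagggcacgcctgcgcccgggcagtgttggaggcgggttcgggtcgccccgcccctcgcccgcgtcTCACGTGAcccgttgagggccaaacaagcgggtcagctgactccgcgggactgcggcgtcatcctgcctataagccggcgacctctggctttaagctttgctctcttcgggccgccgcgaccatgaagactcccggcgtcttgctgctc
Ctsf: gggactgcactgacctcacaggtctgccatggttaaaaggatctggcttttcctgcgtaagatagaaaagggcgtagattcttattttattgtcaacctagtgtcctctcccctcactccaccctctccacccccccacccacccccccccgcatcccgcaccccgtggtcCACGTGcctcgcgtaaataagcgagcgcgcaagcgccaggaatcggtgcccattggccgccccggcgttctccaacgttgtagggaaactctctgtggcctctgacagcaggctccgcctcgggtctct
Ctsl: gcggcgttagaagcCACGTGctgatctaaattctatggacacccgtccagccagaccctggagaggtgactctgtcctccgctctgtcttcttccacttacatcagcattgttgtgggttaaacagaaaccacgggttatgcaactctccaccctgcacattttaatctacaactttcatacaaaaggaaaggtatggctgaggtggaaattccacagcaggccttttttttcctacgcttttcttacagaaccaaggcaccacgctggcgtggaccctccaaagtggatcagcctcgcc
In Ctsa the CACGTG cores begin 12 bases before the start (-12) and at position 6 after it, counting the start itself as 1. In Ctsd they begin at -245 and -98, in Ctsf at -79 and in Ctsl at -236. The printed windows of Ctsa and Ctsl lie inside the annotated spans of their genes (164832872 to 164841032 and 64361890 to 64370772). Their positions therefore count from a start within the gene, and the E-box of Ctsl is not upstream of its annotated span. Of the other motifs searched on both strands, GGGCGG was found in windows of 5 genes (35.7% of all windows), TATAAA in that of Ctss alone (13.6%) and TTCNNNGAA in that of Ctsc alone (8.30%). A match describes the letters only and says nothing of a bound factor.

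Depth ranged from 41979163 to 50764023 reads per library. Of these reads, 69.4% to 70.0% in the controls lay on features encoded by mitochondrial DNA. In the knockout-labelled libraries the share was 71.5% to 71.9%, with no overlap between the groups. Control 490 stood apart on the first principal component (26.4% of the variance), at -30.1 where the others lay between -5.63 and 16.7. Rexo2 itself was measured at 293 to 368 normalised counts in the controls and 274 to 314 in the libraries labelled knockout, with overlap, and a count over the whole gene does not check the deletion. The cardiomyocyte markers, Myh6, Actc1, Tnnt2, Tnni3, Ckm and Myl2, had means from 13390 to 271557 counts, and those groups overlapped in summed level (419529 to 464050 in control, 417972 to 449997 in knockout). All values are normalised counts per gene, which rise with transcript length as well as abundance, and no exon lengths were used here, so levels are not ranked between genes.

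**Figure D1:**
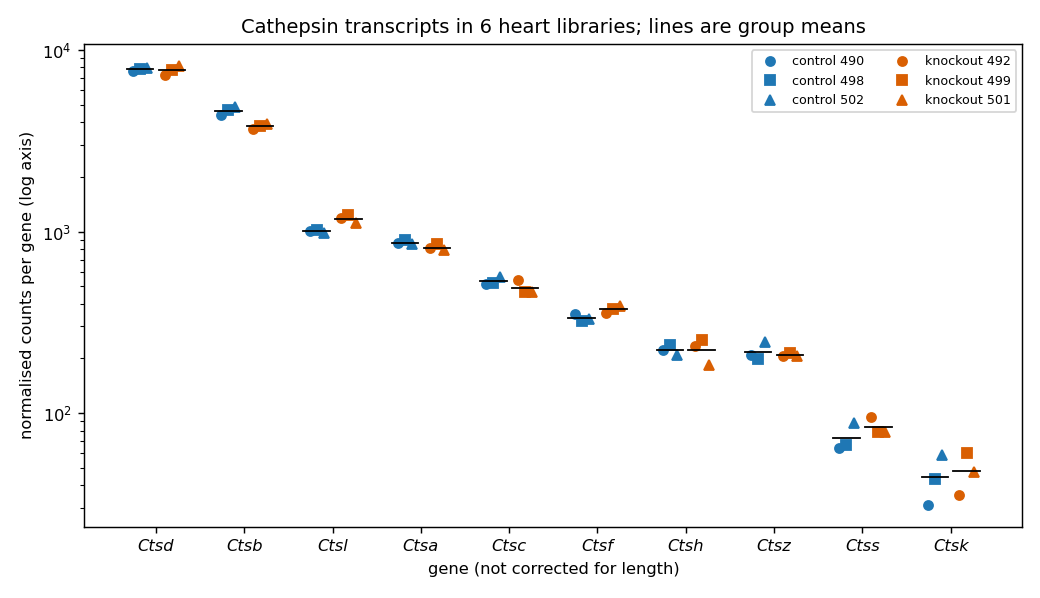
Normalised counts of the 10 cathepsin genes (log axis, not corrected for transcript length) in 3 control and 3 knockout-labelled libraries, with a line at each group mean. The groups separate for Ctsb (4354 to 4831 against 3682 to 3926), Ctsl (977 to 1020 against 1119 to 1229) and Ctsf (322 to 349 against 354 to 388), and overlap for the other 7 genes.

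Ctsb, which encodes cathepsin B, a cysteine protease that acts both as an endopeptidase and as a dipeptidyl carboxypeptidase, was lower in the knockout-labelled hearts. Ctsb (ENSMUSG00000021939.8, chromosome 14, 63122462 to 63145923) held 4354, 4651 and 4831 normalised counts across control 490, 498 and 502, against 3682, 3792 and 3926 across knockout 492, 499 and 501. Every knockout-labelled library lay below every control. The gap between the groups was wider than the range within the knockout group but narrower than the range within the controls. The group means were 4612 ± 241 and 3800 ± 122 (SD, n = 3 each), a difference of -17.6%. On the scale log2(value + 1), limma gave a log2 fold change of -0.28 (SE 0.051, 95% interval -0.39 to -0.17). The spread between controls, 5.22% of their mean, was above the 1.44% that counting of reads alone gives, and in knockout-labelled libraries the figures were 3.22% and 1.66%. In bulk tissue such as this, fewer cells of a type and less RNA per cell cannot be told apart.

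These are the values Ctsb was selected on. The authors' deposited table lists Ctsb at a log2 fold change of -0.28, with 0.00298 as its adjusted p. It ranked 13 of 33 features called among 7550 with an adjusted p, or 0.437% called (0.384% lower). The adjusted p over all 18250 tested features was 0.141 by limma and 0.255 by edgeR, so the call depends on the method. Without control 490, the lowest of the 3 controls for Ctsb, limma gave -0.32 with an adjusted p of 0.0492, and without any other library it gave -0.24 to -0.30 with adjusted p-values from 0.162 to 0.871. The annotated span of Fdft1 (63145150 to 63181687), which encodes squalene synthase, overlaps the end of Ctsb, and the sources used here do not state whether counting used the strand. Fdft1 ranged from 355 to 383 counts over the controls and from 342 to 398 over the knockout-labelled libraries, about the same in both, with a log2 fold change of 0.0065.

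Ctsl differed in the opposite direction. It encodes cathepsin L, the other widely expressed endopeptidase of the family, known to be required for a normal heart in mice. Ctsl (ENSMUSG00000021477.9, chromosome 13, 64361890 to 64370772) measured 1006, 1020 and 977 for control 490, 498 and 502, against 1180, 1229 and 1119 for knockout 492, 499 and 501. All 3 knockout-labelled libraries lay above all 3 controls. The means were 1001 ± 22.0 and 1176 ± 55.0 (SD, n = 3 each), a difference of 17.5%, or 0.23 on the log2 scale (SE 0.059, 95% interval 0.10 to 0.36). Its controls varied by 2.20%, no more than the 3.08% that counting alone gives. Neither limma, edgeR, DESeq2 nor the authors' deposited table called it.

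Ctsf was the other gene with separate groups. It encodes cathepsin F, a cysteine protease with an unusually long propeptide. Ctsf (ENSMUSG00000083282.2, chromosome 19, 4855165 to 4860918) held 349, 322 and 331 counts in the controls and 354, 376 and 388 in the knockout-labelled libraries, in the same order of libraries. The highest control and the lowest knockout-labelled library were close, and the 95% interval of its log2 fold change of 0.16 (SE 0.081) ran from -0.017 to 0.33. The controls varied by 4.25%, no more than the 5.34% that counting alone gives.

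Thus 3 of the 10 genes had groups without overlap, 1 lower and 2 higher, where 9.51% of all tested features had them, 4.90% lower and 4.61% higher. limma called 0 of the 10 at an adjusted p under 0.05, where it called 0.0219% of all features (4 lower, 0 higher). At an unadjusted p under 0.05 there were 2 of the 10, Ctsb and Ctsl, against 3.70% of all features. edgeR called 0 of the 10 (0.0274% of all features), and DESeq2 on the recovered reads called 1, Ctsb (0.437% of features with an adjusted p), as in the authors' deposited table. Since the genes were chosen with this comparison known, nothing is read from these counts. The median log2 fold change of the 10 was -0.012, beside 0.00056 over all tested features, with 6 below 0 and 4 above.

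**Figure D2:**
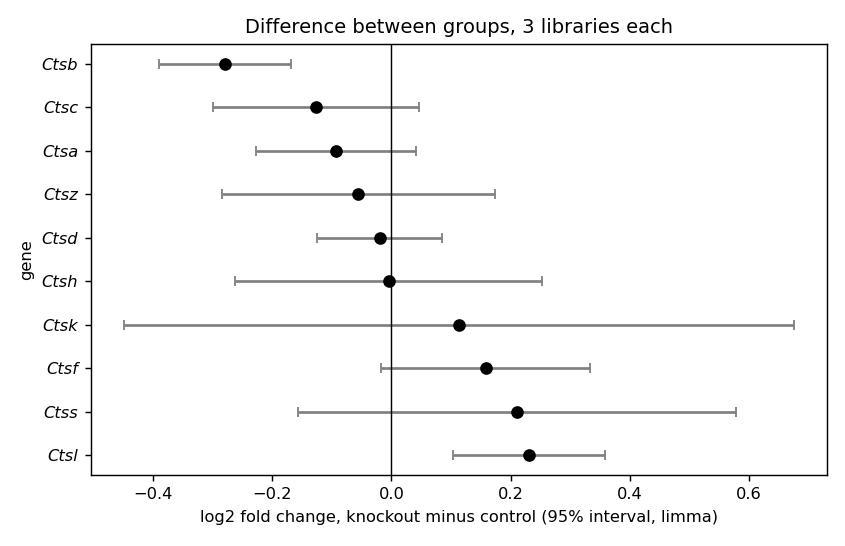
Log2 fold change of each cathepsin, knockout-labelled minus control, on the scale log2(value + 1), with its 95% interval from limma (3 libraries per group). Only the intervals of Ctsb (-0.39 to -0.17) and Ctsl (0.10 to 0.36) lie on 1 side of 0, and Ctsk has the widest.

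Ctsd and Ctsa, the members of other protease classes, differed little. Ctsd (ENSMUSG00000007891.16, chromosome 7, 142375910 to 142387827) encodes cathepsin D, the main aspartic protease of the lysosome. Its counts were 7639, 7897 and 7942 for control 490, 498 and 502, against 7311, 7716 and 8160 for knockout 492, 499 and 501, so that the lowest and the highest values were both in knockout-labelled libraries. Its log2 fold change was -0.019, with a 95% interval from -0.12 to 0.086. Scaling to equal totals of nuclear features turned the sign of Ctsd, as did leaving out knockout 492 (0.020). Ctsa (ENSMUSG00000017760.16, chromosome 2, 164832872 to 164841032) encodes cathepsin A, which besides its own activity protects beta-galactosidase and neuraminidase. Its range was 849 to 898 counts over the controls and 786 to 850 over the knockout-labelled libraries, overlapping by a narrow margin, and its log2 fold change was -0.093 (95% interval -0.23 to 0.041). The spans of Neurl2 and Pltp overlap those of Ctsa at either end. Their groups did not overlap, with log2 fold changes of -0.20 and 0.23 and limma adjusted p-values of 1.00 for both.

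The groups overlapped for Ctsc, Ctsh and Ctsz, which encode cysteine exopeptidases. Ctsc (ENSMUSG00000030560.17, chromosome 7, 88278024 to 88315861), or dipeptidyl peptidase I, activates the serine proteases of immune cell granules. It held 517, 524 and 563 counts in the controls, against 540, 466 and 466 in knockout 492, 499 and 501. Knockout 492 thus lay among the controls, and the log2 fold change of -0.13 (95% interval -0.30 to 0.046) was -0.20 without that library. Ctsh (ENSMUSG00000032359.14, chromosome 9, 90054267 to 90076095), mainly an aminopeptidase, ranged from 209 to 236 counts over the controls and from 185 to 252 over the knockout-labelled libraries. Its log2 fold change of -0.0042 (95% interval -0.26 to 0.25) had no settled direction when 1 library was left out, from -0.097 without knockout 499 to 0.12 without knockout 501. Ctsz (ENSMUSG00000016256.10, chromosome 2, 174427494 to 174439039), a carboxypeptidase also called cathepsin X, held 197 to 246 and 205 to 215 counts, with a log2 fold change of -0.055 (95% interval -0.28 to 0.17) that was 0.036 without control 502. The span of Nelfcd (174415804 to 174427505) overlaps that of Ctsz. Nelfcd had a log2 fold change of -0.085, with overlap between the groups.

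The 2 genes best known from specialised cells gave few reads. Ctss (ENSMUSG00000038642.10, chromosome 3, 95526786 to 95556405), which trims the invariant chain of MHC class II in antigen-presenting cells, held 64.3, 66.7 and 88.5 counts in the controls and 95.5, 78.6 and 79.0 in knockout-labelled libraries. Ctsk (ENSMUSG00000028111.4, chromosome 3, 95499210 to 95509387), its neighbour on the chromosome, encodes the collagen-degrading protease of osteoclasts, which fibroblasts also make. It held 31.3, 43.2 and 59.0 counts in the controls and 35.4, 60.6 and 47.4 in knockout-labelled libraries. The pseudogene Hmgb1-ps5, at 5.36 to 16.0 counts over the 6 libraries, lies within the span of Ctss. Controls varied by 18.2% for Ctss and 31.3% for Ctsk, where counting alone gives 11.5% and 15.0%. The 95% intervals of the log2 fold changes were wide, -0.16 to 0.58 around 0.21 for Ctss and -0.45 to 0.68 around 0.11 for Ctsk. At this depth they cover differences as large as that of Ctsb, upward for Ctss and either way for Ctsk. Single libraries moved both values: Ctss was 0.12 without knockout 492, 0.13 without control 490 and 0.35 without control 502. Ctsk turned to -0.11 without control 490 and -0.071 without knockout 499, and reached 0.31 without knockout 492 and 0.34 without control 502.

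Ratios between 2 genes of the same library do not depend on how libraries are scaled, and for Ctsb they too differed between the groups, as a description of the same values. The log2 ratio of Ctsb to Ctsl reads was 2.11, 2.19 and 2.31 for control 490, 498 and 502, against 1.64, 1.63 and 1.81 for knockout 492, 499 and 501. The groups were apart by -0.51 on the log2 scale, and by -0.46 to -0.57 when any 1 library was left out. The log2 ratio of Ctsb to Ctsd was -0.81, -0.76 and -0.72 in the controls and -0.99, -1.02 and -1.06 in the knockout-labelled libraries, a difference of -0.26 (-0.24 to -0.28 without any 1 library) and again with no overlap. Ctsb to Ctsa differed by -0.19 without overlap (-0.13 to -0.23 without any 1 library). Ctsb to Ctsc differed by -0.15 with overlap, and by -0.059 without knockout 492. Ctsl to Ctsd differed by 0.25 without overlap (0.21 to 0.33), with knockout 501 the nearest to the controls. Of all reads on the 10 genes, Ctsb took 29.3 ± 0.74% over the controls against 25.4 ± 0.18% over the knockout-labelled libraries (SD, n = 3), Ctsl 6.37 ± 0.27% and 7.88 ± 0.51%, and Ctsd 49.7 ± 0.37% and 51.7 ± 1.29%. The sum over the 10 genes was 15734 ± 432 and 14947 ± 465 normalised counts, with overlap.

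**Figure D3:**
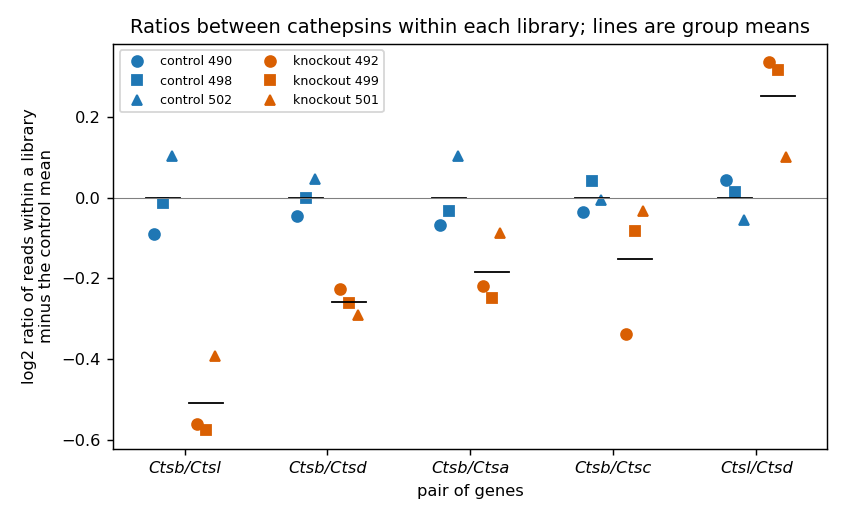
Log2 ratio of reads between 2 cathepsins within each library, shown as the difference from the control mean of that ratio, with a line at each group mean. Ctsb/Ctsl differs most between the groups (-0.51), Ctsb/Ctsd by -0.26, Ctsl/Ctsd by 0.25, and only Ctsb/Ctsc overlaps.

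The features most like Ctsb over the 6 libraries were sought by the root mean square distance between log2(value + 1) values, each centred on its own mean, among 11179 named features with a mean of at least 50. The nearest was Pam, at a distance of 0.029, which encodes the enzyme that amidates peptide hormones and is abundant in the atria. Pam held 4703, 5308 and 5260 counts in the controls and 3980, 4247 and 4305 in the knockout-labelled libraries. Like Ctsb it was lowest among the controls in 490 and lowest of all in knockout 492, and its log2 fold change was also -0.28. The next were Selenoo (0.029), a mitochondrial selenoprotein, Uchl1 (0.032), a ubiquitin hydrolase, Tmem120a (0.043), Men1 (0.047), which encodes menin, Dusp8 (0.047), a phosphatase of MAP kinases, Amigo1 (0.049) and Fech (0.050), the last enzyme of haem synthesis. All 8 had groups without overlap, which a pattern like that of Ctsb entails, with log2 fold changes from -0.29 to -0.21. Uchl1 and Tmem120a had means of only 52.2 and 57.4 counts. The ranking is loose, since 3 of the 8 were among the nearest 8 when control 490 was left out. The other cathepsins were farther from Ctsb, from 0.12 for Ctsa, 0.12 for Ctsc and 0.13 for Ctsd to 0.27 for Ctsl, 0.29 for Ctss and 0.36 for Ctsk, where the median over the features compared was 0.18.

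**Figure D4:**
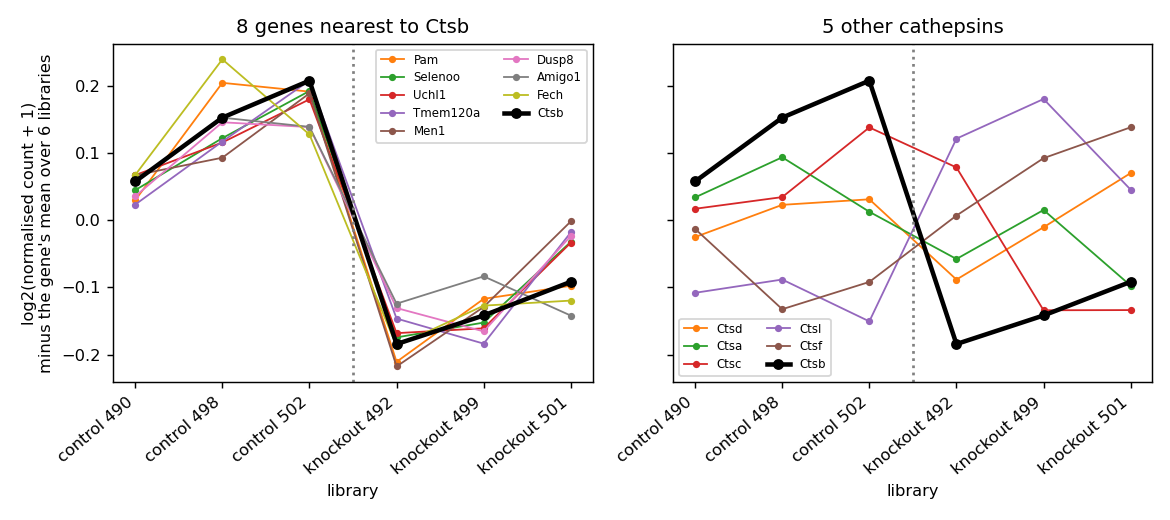
Log2(normalised count + 1) minus each gene's mean over the 6 libraries, for the 8 features nearest to Ctsb (left) and 5 other cathepsins (right), with Ctsb in black. Lines join the values of a gene and imply no order of libraries. Ctsb and its nearest features are high in all controls and low in all knockout-labelled libraries, whereas Ctsl and Ctsf run the other way.

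Of the 13 other cathepsin genes of the mouse, 1 was tested. Ctso, a cysteine protease, held 180, 229 and 222 counts in the controls and 217, 256 and 308 in the knockout-labelled libraries, with overlap, a log2 fold change of 0.30 (SE 0.13) and a limma adjusted p of 1.00. That fold change was 0.17 without knockout 501 and 0.19 without control 490. Ctse, Ctsw and Ctsll3 had at most 5.37 counts in any library. The remaining 9, the mast cell and neutrophil protease Ctsg and 8 genes of the placental cluster, were at 0 in every library. A count of 0 allows up to 3 reads per library.

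The machinery around the cathepsins was compared through 7 further lists, of inhibitors, sorting factors, TFEB and its regulators, other hydrolases, membrane proteins, proton pump subunits and autophagy genes. limma called 0 of their 147 tested genes, where it called 0.0219% of all features. edgeR and DESeq2 also called 0 of them, where their shares were 0.0274% of all features and 0.437% of features with an adjusted p. DESeq2 gave no adjusted p to some of these genes. At such shares, a count of 0 called, here or for a list below, does not show that its genes are unchanged. The median log2 fold change was -0.0048, beside 0.00056 over all tested features. At an unadjusted p under 0.05, 4 were lower and 2 higher, where the shares over all features were 1.98% and 1.72%. Groups did not overlap for 13 of the 147, 5 lower and 8 higher, close to the 9.51% of all features.

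Among inhibitors, 0 of 5 tested genes were called. Cst3, which encodes cystatin C, the main secreted inhibitor of cysteine cathepsins, averaged 2834 ± 184 counts over the controls against 2818 ± 70.0 over the knockout-labelled libraries (SD, n = 3). Cstb, the cytosolic cystatin B, held 73.5 ± 7.75 and 75.5 ± 16.8. Neither gene shifted by more than the spread of its libraries. Ctla2a, related to the propeptide of cathepsin L, had a log2 fold change of -0.25, but that rests on control 490 at 153 counts, and without it the value was 0.020. Ctla2b, at 8.46 to 17.2 counts, had one of 0.15.

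Sorting factors had 0 called of 20 (median -0.028). Their summed counts did not overlap (23826 to 24575 over the controls, 22164 to 22841 over the knockout-labelled libraries). Psap alone averaged 12451 and 10900 counts in these groups, so the sums depend heavily on that 1 gene and do not describe the list. Psap encodes prosaposin, the precursor of the saposins, which travels to the lysosome with procathepsin D. Its counts were 12901, 12211 and 12240 for control 490, 498 and 502, against 10856, 10550 and 11293 for knockout 492, 499 and 501. All knockout-labelled libraries lay lower, and the log2 fold change was -0.19 (SE 0.045, limma adjusted p = 0.382). Gnptab encodes subunits of the enzyme that starts the mannose 6-phosphate tag. Its values were 467, 462 and 443 in the controls and 543, 506 and 524 in the knockout-labelled libraries, higher without overlap, with a log2 fold change of 0.20 (SE 0.071, limma adjusted p = 1.00). The mannose 6-phosphate receptors were level, M6pr at 737 ± 6.47 and 735 ± 16.1 counts and Igf2r at 3551 ± 158 and 3419 ± 10.6 (SD, n = 3). Lgmn, the legumain that cleaves procathepsins, held 339 ± 47.3 and 325 ± 15.8.

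Of the membrane proteins, 0 of 18 were called and the median was 0.052. Groups did not overlap for 2 of the 18, 1 lower and 1 higher, beside 9.51% of all tested features. Lamp1, a major glycoprotein of the lysosomal membrane, held 3364, 3371 and 3412 counts in the controls and 2955, 2966 and 2885 in the knockout-labelled libraries. The groups did not overlap, with a log2 fold change of -0.20 (SE 0.045, limma adjusted p = 0.293). The controls varied by 0.76% and the knockout-labelled libraries by 1.51%, less than the 1.68% and 1.89% that counting alone gives. Its relative Lamp2 was level, at 2547 ± 35.7 and 2562 ± 80.5 (SD, n = 3), and Clcn7, a chloride transporter, had a log2 fold change of 0.15 with overlap. Proton pump subunits had 0 called of 17 (median -0.016). Groups did not overlap for 4 of them, 2 lower and 2 higher, where the share over all tested features was 9.51%. Atp6ap1, an accessory subunit, held 1356 ± 38.1 and 1199 ± 6.01 counts, lower without overlap by -0.18 on the log2 scale (limma adjusted p = 1.00). Its knockout-labelled libraries varied by 0.50%, less than the 2.96% that counting alone gives. Atp6v0a1 had a log2 fold change of 0.097 with overlap. Under scaling to equal totals limma called Psap (-0.26, adjusted p = 0.0257) and Lamp1 (-0.27, adjusted p = 0.0272), and under no other alternative was any of these genes called. That scaling also shifted the median log2 fold change of all tested features to -0.069.

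TFEB and its regulators had 0 called of 20 (median 0.023). Tfeb itself averaged 435 ± 43.0 counts over the controls and 427 ± 21.7 over the knockout-labelled libraries, and its relatives Tfe3 (281 ± 37.7 and 264 ± 13.9) and Mitf (1454 ± 70.3 and 1402 ± 45.6) also overlapped (SD, n = 3). Groups did not overlap for 2 of the 20, both higher, beside 9.51% of all tested features (4.61% higher). Slc38a9, the arginine sensor of the lysosome, was among these, with a log2 fold change of 0.19 (limma adjusted p = 1.00). Rragb, at 11.6 to 37.2 counts, had one of 0.61 with overlap, which was 0.31 without control 490. Other hydrolases had 0 called of 37 (median 0.012), with Hgsnat at -0.23 and Arsb at -0.24, both with overlap. In 2 of the 37 the groups did not overlap, both higher, beside 9.51% of all tested features (4.61% higher). Autophagy genes had 0 called of 30 (median -0.026), with Atg3 at -0.20 without overlap and Sqstm1, the p62 receptor, at 0.10 with overlap (0.048 without knockout 499, 0.19 without knockout 492).

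**Figure D5:**
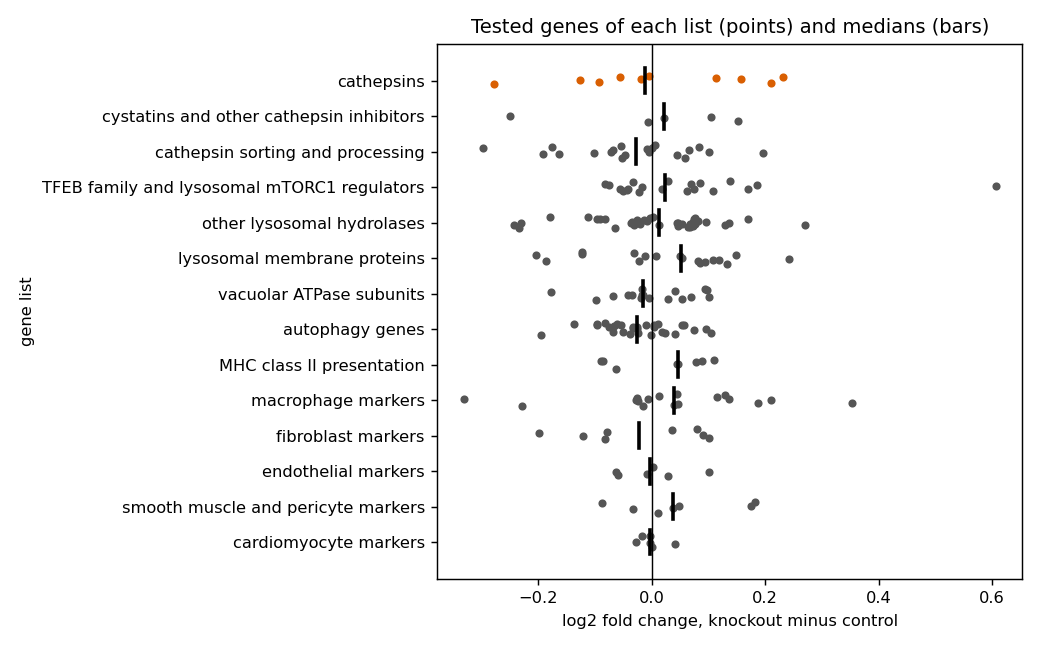
Log2 fold changes, knockout-labelled minus control, of the tested genes in each list with at least 5 of them (points, with the cathepsins in orange) and their medians (bars). Medians lie between -0.028 (sorting factors) and 0.052 (membrane proteins), and the single point beyond 0.6 is Rragb, at 11.6 to 37.2 counts, whose value was 0.31 without control 490.

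Because macrophages and fibroblasts express cathepsins, markers of the cell types of the heart were read beside them. Of 17 macrophage markers limma called 0 (median 0.039), where it called 0.0219% of all features. The summed level of the markers overlapped (4603 to 5270 counts in control, 5074 to 5535 in knockout). Their log2 fold changes ran from -0.33 to 0.35, with 10 above 0 and 7 below. Groups did not overlap for 2 of the 17, both higher, beside 9.51% of all tested features (4.61% higher). Adgre1, which encodes F4/80, held 86.7, 96.8 and 92.6 counts in the controls and 132, 116 and 106 in the knockout-labelled libraries, higher without overlap (log2 fold change 0.35, limma adjusted p = 1.00). Mertk, a receptor for engulfing dying cells, also lay higher without overlap, at 0.21. Genes of MHC class II presentation had 0 called of 8 (median 0.045), with Cd74, the invariant chain cut by Ctss, at 575 ± 43.8 and 634 ± 172 counts (SD, n = 3) and H2-Eb1 at a log2 fold change of -0.09. For Ctss and Cd74 alike the highest library was knockout 492. Whether marker levels have a part in the differences of single cathepsins was not tested.

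Fibroblast markers had 0 called of 8 (median -0.022), with Col3a1 at -0.12 and Dcn at 0.080, both with overlap. Log2 fold changes of the 8 ran from -0.20 to 0.10. For 1 of the 8, lower, the groups did not overlap, beside 9.51% of all tested features (4.90% lower). Summed levels of the fibroblast markers were 8754 to 8820 counts in control and 8635 to 9524 in knockout. Endothelial markers had 0 called of 6 (median -0.0031, Egfl7 at -0.059 and Emcn at 0.10), and smooth muscle and pericyte markers 0 of 7 (median 0.037, Acta2 at 0.18 and Cspg4 at -0.088, or 0.28 and -0.14 without control 490). Their summed levels overlapped, from 10482 to 11684 and 10796 to 11346 counts for endothelial genes and from 18331 to 18505 and 18185 to 19002 for smooth muscle and pericyte genes. Cardiomyocyte markers had 0 called of 6 (median -0.0037), with Ckm at 0.042 and Myh6 at -0.028. Adipocyte markers had 1 tested of 4, Fabp4 at 0.068, and summed to 2279 to 2628 counts in control and 2344 to 2926 in knockout. Neutrophil and mast cell markers had 1 tested of 10, Kit at -0.12 (-0.27 without control 490, -0.024 without control 502), with Elane at 0 in all libraries and sums of 156 to 191 and 148 to 157 counts. None of the 12 lymphocyte markers reached the filter, and their sums were 36.7 to 78.4 and 48.5 to 66.6. edgeR and DESeq2 also called 0 of these markers, where their shares were 0.0274% of all features and 0.437% of features with an adjusted p. DESeq2 gave no adjusted p to some of the markers, Adgre1 and Kit included. The unadjusted p of limma was under 0.05 for Adgre1 alone.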

How the data were processed

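Total RNA of whole hearts was sequenced after removal of cytoplasmic ribosomal RNA, with random hexamer priming, per the labels' protocols. The 6 samples of RNA ends from mitochondria were not analysed here. The deposited values are signal per gene, read counts divided by a size factor per library by the authors. DESeq2 1.22.2 in R 3.5.2, featureCounts, bedtools and Bowtie2 2.3.4.1 are the tools listed, and builds mm10 and GRCm38 are named without roles, per the submitters' processing notes. The authors also deposited a DESeq2 table, which was read as deposited: log2 fold changes, p-value columns and the test score. It gives an adjusted p to 6 of the 10 cathepsins, and missing values were kept missing.

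Symbols were joined by Ensembl identifier for 54686 of 54715 features. Gene spans and promoter windows are from RefSeq, GRCm38.p6. Dividing by the worth of 1 read gave whole reads for 100% of 156689 nonzero values, within 0.01. Replicate libraries differed by more than sampling noise (chi-square per degree of freedom 3.34 to 13.7), so all 6 were kept as samples.

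Features averaging at least 10 (18250 of them) were tested on log2(value + 1), which understates changes of low genes, with limma 3.58.1 (trended prior, 2-sided, genotype only, Benjamini-Hochberg at 0.05) in R 4.3.3. The code was tested on simulated data. edgeR 4.0.16 and DESeq2 1.42.0 on recovered reads were among 18 alternatives, with pseudocount, filter, scaling, prior and leaving out each library. A planned ranking of levels per exon length was not made, since no exon lengths were used here.

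The cathepsins and the 17 other lists were chosen with earlier results of these data known. Named genes are all cathepsins, up to 4 called members of each other list or, with none called, the 2 of smallest p, and the 8 features nearest to Ctsb. Also named are Rexo2 and the genes whose spans overlap Ctsb, Ctsa, Ctsz or Ctss (Fdft1, Neurl2, Pltp, Nelfcd and Hmgb1-ps5). Cst3, Cstb, M6pr, Igf2r, Lgmn, Lamp2, Tfeb, Tfe3 and Mitf fall outside the rule and were chosen for their roles after their values were seen.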

Additional observations from a re-analysis of the deposited data

How the results depend on the processing

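The number of features called by limma was 4 (4 lower, 0 higher). It was 33 with DESeq2 on the recovered reads and 33 in the authors' deposited table, 37 with equal totals, 12 without a filter, 12 with robust moderation, 0 without a trend, and 1 to 8 when 1 library was left out. The split was 5 lower and 1 higher with TMM scaling and 3 lower and 1 higher with equal nuclear totals. Of the cathepsins, 0 were called. With DESeq2, the authors' deposited table or equal totals it was 1, Ctsb each time, and 0 to 1 when 1 library was left out, the 1 being Ctsb without control 490. Ctsb stayed negative in all 18 alternatives, from -0.35 with equal totals to -0.24, and Ctsl positive, from 0.16 with equal totals to 0.27. Ctsa (-0.16 with equal totals to -0.066) and Ctsc (-0.20 to -0.089) stayed negative, and Ctsf (0.088 with equal totals to 0.19) and Ctss (0.12 to 0.35) positive, in their 18. Signs changed for Ctsd in 2, Ctsh in 6, Ctsz in 1 and Ctsk in 2 of 17 alternatives. Equal totals shifted the median log2 fold change of all features to -0.069.

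Members of the other lists were called in 0 cases, and in 2, Psap and Lamp1, with equal totals. Of 29 genes named from those lists, signs turned when 1 library was left out for Ctla2a (-0.42 to 0.020), Myh6 (-0.049 to 0.014), Ctla2b (-0.15 to 0.33), Cd74 (-0.094 to 0.28), Emcn (-0.027 to 0.23), H2-Eb1 (-0.31 to 0.082) and Fabp4 (-0.017 to 0.14), and with equal totals for Fabp4 (-0.0019) and Ckm (-0.029). Control 490 turned Ctla2a, Myh6 and H2-Eb1, knockout 492 Cd74 and Emcn, knockout 501 H2-Eb1 and Fabp4, and control 498 Ctla2b. Leaving out 1 library also moved values by over 1.5 times for Acta2 (0.11 to 0.28), Cspg4 (-0.14 to -0.030), Kit (-0.27 to -0.024), Col3a1 (-0.19 to -0.076), Egfl7 (-0.096 to -0.032), Dcn (0.050 to 0.12), Sqstm1 (0.048 to 0.19), Atg3 (-0.12 without control 502), and Clcn7 (0.088) and Atp6v0a1 (0.056) without knockout 499. Ckm (0.017 without control 502) also moved by over 1.5 times, as did Ctso and Rragb with the values given above. The cause was not tested. No paired analysis was possible because the columns carry library numbers and not the replicate numbers of the labels. The ranking per exon length and its alternatives were not run. Counting limits Ctsk and Ctss most, at 33 to 64 and 70 to 89 reads per library.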
